A study of Danio rerio with 6 samples.

Results

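The genes described here are the Delta ligands dla, dlb, dlc and dld, the Notch receptors notch1a and notch3, and the transcription factor genes her1, her7 and mespba of the zebrafish segmentation clock. They are 9 of the 8793 genes named on the array, and every probe set with 1 of their symbols was taken, 13 of the 15502 that are not controls. They were measured in whole zebrafish embryos at 19 hours post fertilization (hpf), 3 arrays of embryos mutant for hand2 (hanS6 allele) and 3 of wild-type siblings, each a pool of 10 to 25 embryos. The embryos came from 3 crosses of heterozygotes, and in both groups the heart reporter Tg(myl7:egfp) was the basis of sorting. Siblings picked by heart phenotype can include heterozygotes. RNA of all tissues is pooled, so fewer cells of a type and less RNA per cell cannot be told apart.

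Delta proteins sit on the surface of one cell and activate Notch receptors on its neighbour, after which the cleaved receptor enters the nucleus and switches on Hairy/Enhancer of split (her, hes, hey) genes. In the presomitic mesoderm her1 and her7 encode repressors whose expression oscillates, dlc oscillates with them and dld helps to keep neighbouring cells in step, and mespba is expressed as the next somite boundary is set. In the neural plate dla, dlb and dld mark newly forming neurons and hold their neighbours back from the same fate. The gene hand2 encodes a transcription factor of the lateral plate mesoderm, the heart and the pharyngeal arches, and the comparison asks which transcripts differ when it is mutant.

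The labels were first checked on hand2 itself, which was at 348.9, 447.7 and 292.2 in siblings and 52.8, 50.9 and 45.1 in mutants (MAS5 signal, linear; replicates 1, 2 and 3). Every mutant value lay under the brightest Tag control of the same array, so the mutant value is a background reading (limma, adjusted p = 0.00509). Tag controls match no zebrafish transcript, and their array maxima of 57.0 to 122.3 served as the background limit. Median signals were 150.6 to 175.7 on the 6 arrays, which also showed markers of somitic muscle, neural tube, epidermis, notochord, blood and tail bud above that limit. The heart factor gene nkx2.5 was at background in both genotypes. Of the 11626 probe sets tested, hand2 was the only 1 with an adjusted p under 0.05 (0.0086%), and 3.03% had an unadjusted p under 0.05.

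None of the 12 member probe sets tested passed after adjustment in limma. At an unadjusted p under 0.05 there was 1, a dlc probe set that was higher in mutants, as were 2.0% of all probe sets, and 0 members were lower, as were 1.03% of all. Of the 12, 7 had higher and 5 lower fitted values, and their median log2 difference was 0.03 beside 0.02 for all probe sets tested. The mutant values of both tested dlc probe sets, her1 and 1 of the 2 notch1a probe sets were above those of the siblings at all 3 replicate numbers. Those of her7 and mespba were below, and dla, dlb, dld, notch3 and the other notch1a probe set went both ways. Differences are mutant minus sibling on log2(signal + 16), given with their standard error, and p-values are limma's with Benjamini-Hochberg adjustment over all 11626.

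Among the ligands, dlc had the largest fitted difference. On the first of its 3 probe sets its signal was 392.5, 174.6 and 144.1 in siblings and 733.8, 288.0 and 387.6 in mutants of replicates 1, 2 and 3. Each mutant array was above the sibling array of the same number, by 1.87, 1.65 and 2.69 times, but the groups overlapped, since sibling replicate 1 was brighter than mutant replicates 2 and 3. The log2 difference was 0.96 ± 0.40, with a 95% interval of 0.07 to 1.85, an unadjusted p of 0.0374 and an adjusted p of 0.942 (limma). Replicate 1 was the highest array of both genotypes, so most of the spread inside each group was common to the 2 arrays of a number. With the replicate number as a block the standard error was 0.18 and the adjusted p 0.526. The unadjusted p was above 0.05 without wild-type replicate 2 (0.12), wild-type replicate 3 (0.138) or mutant replicate 1 (0.155), and the log2 difference was 0.59 without mutant replicate 1.

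The other dlc probe sets gave a smaller difference or none that could be read. The second dlc probe set (name ending in _s_at) was at 290.7, 269.2 and 252.3 in siblings and 476.5, 272.0 and 311.8 in mutants. Here the siblings lay close together and mutant replicate 1 stood above all others, while mutant replicate 2 lay inside the sibling range. Its log2 difference was 0.33 ± 0.22 (95% interval -0.16 to 0.82, limma adjusted p = 0.942), and 0.10 without mutant replicate 1. The signal ratio of the first probe set to this one ran from 0.571 in sibling replicate 3 to 1.54 in mutant replicate 1, so the 2 did not read dlc alike. The third dlc probe set, the only member that the filter on dim probe sets left out, was at 14.3 to 23.9 on the 6 arrays, at background in both genotypes, and carries no information on dlc. Mutant replicate 1, the brightest array for both dlc readings, also had the lowest 3' to 5' log2 ratio of the actc1b control probe sets, 2.18 against 3.31 to 3.91 on the others. The same ratio for gapdh did not set it apart, at 1.73 against 1.77 to 2.08. Mutant replicate 1 was also the array with the highest signal of the globin genes hbae3 (7812.4) and hbbe3 (6257.6). The part of RNA quality and of blood in the dlc difference was not tested.

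**Figure D1:**
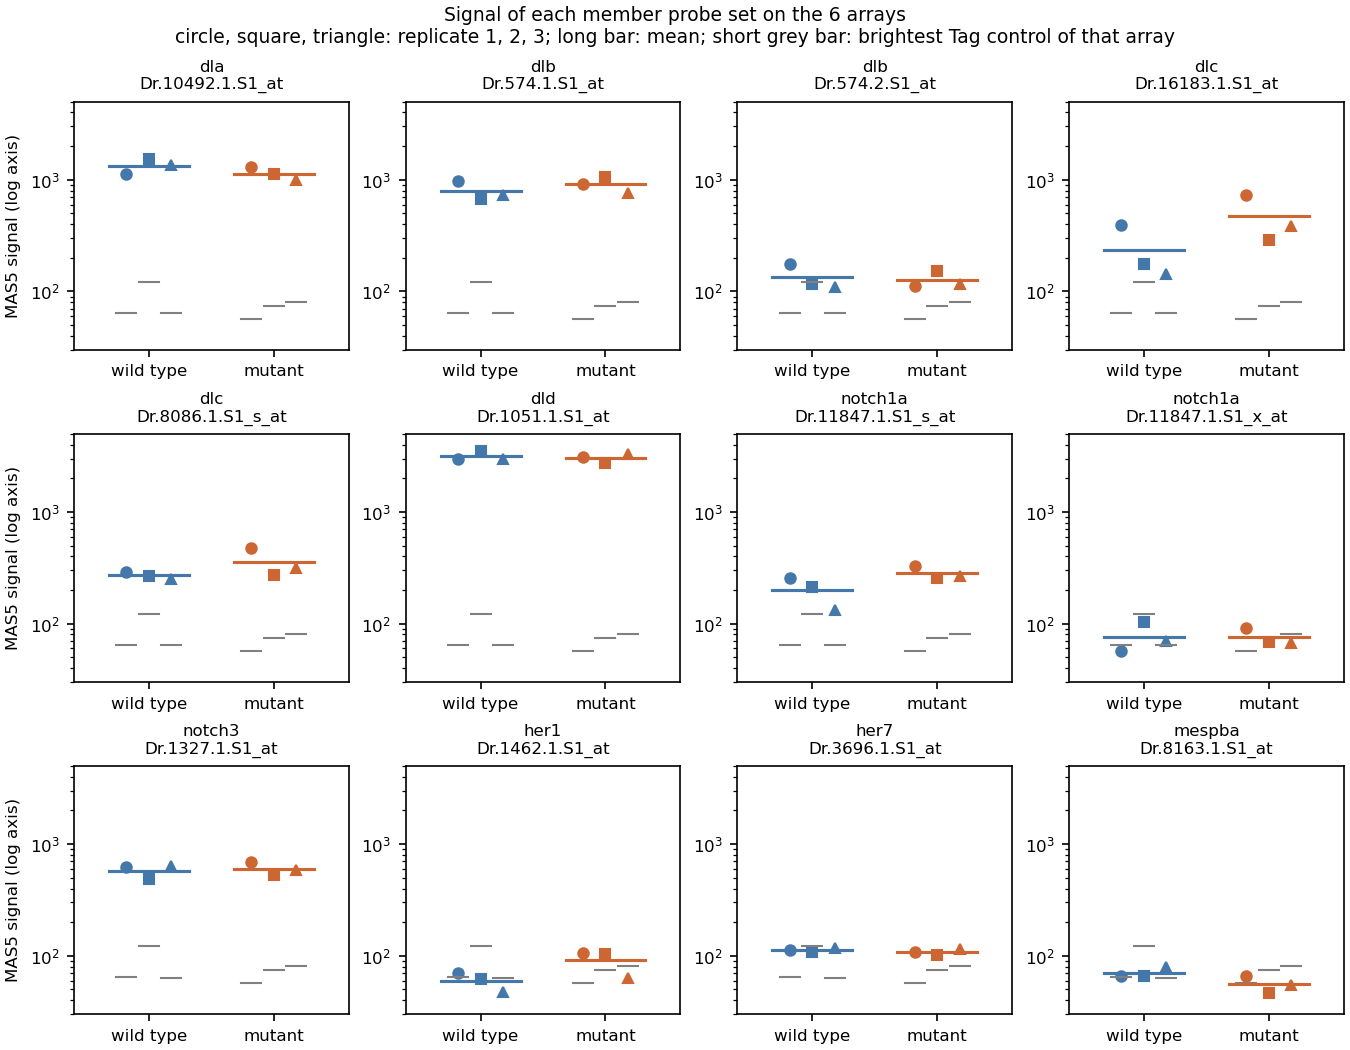
MAS5 signal (log axis) of the 12 tested member probe sets in 3 wild-type sibling and 3 mutant arrays, with the group mean as a long bar and the brightest Tag control of each array as a short grey bar. The first dlc probe set, in the top right panel, spans 144.1 to 733.8, dld stays between 2765 and 3502, and her1 and mespba lie among the Tag controls.

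The neural ligand dla was at 1120.7, 1532.0 and 1342.4 in siblings and 1293.3, 1123.6 and 985.7 in mutants. It was lower in mutants at replicates 2 and 3 and higher at replicate 1, and the groups overlapped. The log2 difference was -0.23 ± 0.16 (95% interval -0.59 to 0.14, limma adjusted p = 0.942), and -0.12 without wild-type replicate 2. The ligand dlb, which accompanies dla in neurogenesis, was at 978.3, 673.9 and 723.4 in siblings and 909.6, 1064.1 and 757.1 in mutants on the brighter of its 2 probe sets. Only replicate 2 showed a gap, of 0.65 on the log2 scale, and the fitted difference was 0.20 ± 0.19 (95% interval -0.22 to 0.62). It was 0.085 without mutant replicate 2. The dimmer dlb probe set was at 109.2 to 177.1 in siblings and 110.7 to 153.4 in mutants and differed by -0.06 ± 0.23.

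The ligand dld, which acts in both tissues, was the steadiest of the ligands. Its signal was 2975.3, 3502.2 and 2976.5 in siblings and 3101.2, 2765.0 and 3292.1 in mutants. The groups overlapped throughout, and the log2 difference of -0.05 ± 0.13 had a 95% interval of -0.35 to 0.26, so a change of 0.5 in either direction lies outside it. Its sign turned after quantile normalization, to 0.0046.

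Of the receptors, notch1a was higher in mutants at every number on the brighter of its 2 probe sets (_s_at). The signal was 256.6, 213.8 and 133.2 in siblings and 324.9, 257.5 and 267.9 in mutants. This was the only member probe set whose groups did not overlap, which 6.75% of all tested probe sets also showed, and the gap was narrow, 256.6 in the highest sibling against 257.5 in the lowest mutant array. The log2 difference was 0.50 ± 0.24 (95% interval -0.04 to 1.04, limma adjusted p = 0.942), and 0.25 without wild-type replicate 3. The dimmer notch1a probe set (_x_at) was at 56.5 to 103.1 in siblings and 67.7 to 92.2 in mutants, at or below the Tag controls on 2 arrays of each genotype. It differed by 0.02 ± 0.23 and its sign turned under a common median (-0.064) and after quantile normalization (-0.045). Names ending in _s_at or _x_at mark probe sets that can match more than 1 transcript, which also applies to the second dlc probe set.

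The receptor notch3, broadly expressed in neural progenitors, was at 623.4, 482.0 and 629.9 in siblings and 686.6, 529.0 and 582.8 in mutants. The arrays of the genotypes were interleaved, with a log2 difference of 0.05 ± 0.17 (95% interval -0.33 to 0.44), which was -0.027 under a common median.

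The oscillating repressor genes her1 and her7, which lie next to each other in the RefSeq gene table (assembly GRCz12tu), are taken in turn. The signal of her1 was 70.3, 62.3 and 47.0 in siblings and 105.0, 104.6 and 62.7 in mutants. It was above the sibling array at each number, with overlapping groups, and 2 sibling arrays and 1 mutant array were at or below the Tag controls. The log2 difference was 0.48 ± 0.24 (95% interval -0.05 to 1.01, limma adjusted p = 0.942), a size that depends on the offset of 16 at so dim a signal: adding 1 instead gave 0.57, and adding 64 gave 0.31.

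The signal of her7 was 113.4, 109.0 and 116.6 in siblings and 108.3, 101.3 and 115.8 in mutants. These 6 values were the closest together of the tested members, and 1 sibling array was at or below its Tag control. Although her7 was lower in mutants at every number, the ratios were 0.955, 0.929 and 0.993, and the fitted difference was -0.05 ± 0.18 (95% interval -0.45 to 0.35, limma adjusted p = 0.978). The difference between her1 and her7 was not tested.

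The boundary gene mespba was at 66.5, 65.9 and 79.3 in siblings and 66.2, 46.5 and 54.7 in mutants. The ratio of mutant to sibling was 0.995 at replicate 1, and mutant values were lower at replicates 2 and 3. For mespba, 1 sibling array and 2 mutant arrays were at or below the Tag controls. The log2 difference was -0.28 ± 0.19 (95% interval -0.71 to 0.16, limma adjusted p = 0.942), and -0.18 without mutant replicate 2. Its neighbour mespaa, a related gene of the same stage of somite formation with no other protein-coding gene between them in that gene table, was at 117.9, 90.2 and 93.4 in siblings and 91.8, 55.5 and 67.8 in mutants. Its mutant value was lower at all 3 numbers, with a log2 difference of -0.42 ± 0.22 (limma adjusted p = 0.942), and 1 sibling array and 2 mutant arrays were at or below the Tag controls.

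Counted together, 6 of the 12 member probe sets kept 1 direction at all 3 replicate numbers, 4 higher and 2 lower, beside 30.9% of all tested probe sets (16.2% higher and 14.7% lower), and the second dlc probe set lost that direction under a common median and after quantile normalization. With the replicate number as a block, 3 member probe sets had an unadjusted limma p under 0.05, beside 7.41% of all probe sets. They were the first of dlc (0.000631), the brighter of notch1a (0.0318) and that of her1 (0.0342), and none passed after adjustment. In the same limma fit the second dlc probe set was at 0.104 and the dimmer notch1a probe set at 0.949. In limma without the block, 2 members had an unadjusted p under 0.05 without wild-type replicate 1, beside 874 of all 11626 probe sets. Without mutant replicate 3 there were 2 as well, beside 1274 of all. The count was 0 without wild-type replicate 2, wild-type replicate 3 or mutant replicate 1, beside 204, 154 and 263 of all. With so few members and probe sets of 1 gene among them, these counts describe the list and test nothing.

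**Figure D2:**
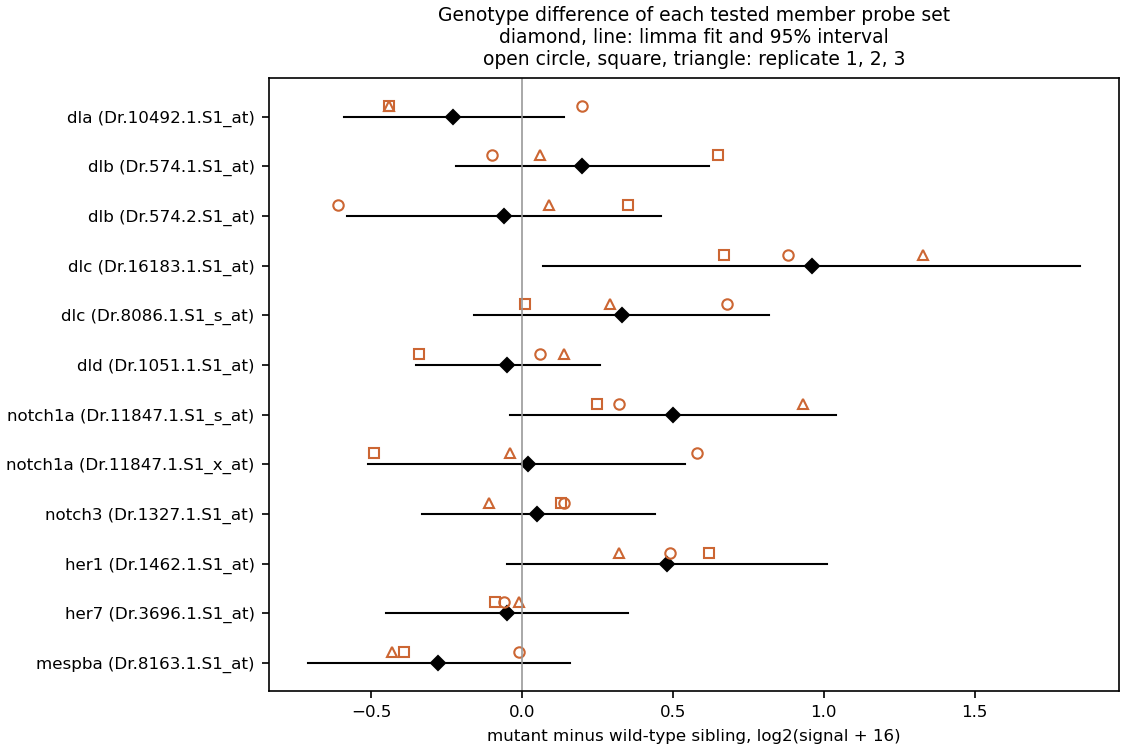
Mutant minus wild-type sibling difference, on log2(signal + 16), of the 12 tested member probe sets: diamonds and lines are the limma fit with its 95% interval, open symbols the difference at replicates 1, 2 and 3. The interval of the first dlc probe set, 0.07 to 1.85, is the only one that leaves out 0.

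For the contrast of somite clock genes with neural deltas, mean log2 values were compared. That of her1, her7, dlc and mespba was set against that of dla and dlb. The probe set of highest mean over all 6 arrays stood for each gene. For dlc this choice turned on the mutant arrays. The first probe set was brighter than the second in mutants (mean 470 against 353) but dimmer in siblings (237 against 271). The mutant minus sibling difference of the clock mean was 0.33, 0.20 and 0.30 at replicates 1, 2 and 3, although her7 and mespba on their own had lower values in mutants, and that of the neural mean was 0.05, 0.10 and -0.19. The first of these differences minus the second was 0.27, 0.10 and 0.49, or 0.29 over all arrays. It was 0.13 with the other dlc probe set in place of the first. The value was 0.47 with her1 and mespba, the dimmest, left out, which keeps dlc and her7 as the clock genes. Fitted differences were 0.96 for dlc, 0.48 for her1, -0.05 for her7 and -0.28 for mespba, so dlc added most to the clock mean. The fitted values of her1, her7 and mespba had no common direction, so 0.29 is not a difference shared by the clock genes. Leaving out her1 and mespba gave dlc more weight, and the contrast without dlc was not computed. As the genes were picked with results known, no test was made of the contrast.

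Tissue markers were read beside these values. In somitic muscle 6 of 7 markers had higher fitted values (median 0.44), with myod1, the myogenic regulator, at 57.6 to 73.3 in siblings and 80.2 to 112.2 in mutants (0.49, limma unadjusted p = 0.0372, adjusted p = 0.942). For myod1, 2 sibling arrays and 1 mutant array were at or below the Tag controls. The muscle genes myog, mef2d and tnnc2.2 differed by 0.44, 0.67 and 0.26 in the fit but by -0.09, -0.10 and -0.01 at replicate 3. Of the other muscle markers myf5 differed by 0.51, while mylpfa (0.01) and actc1b (-0.02), both bright, hardly differed. The summed signal of that list was 17612 to 23238 in siblings and 16373 to 24533 in mutants. Neural tube markers had 4 of 7 higher (median 0.07, sums 10908 to 13099 and 12025 to 13656), and tail bud markers 1 of 4 higher (median -0.08, sums 3975 to 4911 and 3620 to 4630). Of the tail bud markers, eve1 was lower at every number with overlapping groups, by -0.70 (limma unadjusted p = 0.0604, adjusted p = 0.942). The others differed by -0.15 (msgn1), -0.02 (cdx4) and 0.79 (tbx16, where sibling replicate 2 alone was low). No marker of these 3 lists was at background in both genotypes. The lists with the largest medians were blood and heart muscle. All 4 blood markers had higher fitted values (median 0.96, 3 with an unadjusted p under 0.05, sums 3077 to 4213 in siblings and 3803 to 14536 in mutants), yet mutant replicate 3 stood at the sibling level, with hbae3 at 2085.7 against 1644.2 to 2523.3. The defining blood factor gene gata1a was at or below the Tag controls on all 3 sibling arrays. All 3 heart muscle markers tested had lower fitted values (median -1.01, 3 with an unadjusted p under 0.05), among them myl7, the gene of the sorting reporter (-1.34). Of all 7356 genes tested, 219 had an unadjusted limma p under 0.05. The heart sums, 384 to 914 and 174 to 413, include nkx2.5, which was not tested. Its signal, at background, was higher in mutants (17.5 to 29.4) than in siblings (3.5 to 15.4). Notochord and floor plate markers had 3 of 4 higher (median 0.35, sums 2377 to 3022 and 2060 to 4727), and epidermis and periderm markers 0 of 4 (median -0.22, sums 45187 to 53959 and 35605 to 49516). No marker passed the adjusted threshold. The part of tissue proportions in the member differences was not tested.

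The rest of the Notch pathway showed no gene past the adjusted threshold. Of the other ligands, jag1a (0.17 ± 0.18), jag1b (0.13 ± 0.19) and jag2b (-0.04 ± 0.14) were measured. The receptor gene notch2 was at 426.4, 298.8 and 435.8 in siblings and 414.6, 773.0 and 442.3 in mutants, where only replicate 2 stood out, and differed by 0.44 ± 0.25 (0.16 without mutant replicate 2). A second, dimmer notch2 probe set was at 138.6, 94.8 and 163.6 in siblings and 211.7, 238.9 and 201.9 in mutants. It was higher at every number without overlap, by 0.68 ± 0.22 (limma unadjusted p = 0.0124, adjusted p = 0.942). Groups did not overlap in 6.75% of all tested probe sets, and 3.03% had an unadjusted limma p under 0.05. The dimmest differed by -0.41, where mutant replicate 2 was at 36.7 and the differences at replicates 1 and 3 were -0.03 and -0.01. The 3 readings of notch2 had no common direction, and notch1b was at background in both genotypes.

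Of 11 tested genes that process the ligands and receptors or pass on the signal, 4 had higher and 7 lower fitted values, with a median of -0.02 beside 0.00 for all 7356 genes tested. The Notch-modifying glycosyltransferase gene lfng was at 3772.6, 4337.0 and 3777.9 in siblings and 3378.1, 3639.5 and 3310.0 in mutants. Its groups did not overlap, as in 6.75% of all tested probe sets, and the difference was small, -0.20 ± 0.13 (limma adjusted p = 0.942). The gamma-secretase subunit gene psenen was lower at every number (1744.7, 1589.4 and 2011.1 in siblings, 1475.6, 1287.3 and 1673.3 in mutants), by -0.27 ± 0.15. The fucosyltransferase gene pofut1 (-0.27 ± 0.21), the protease gene adam17a (0.34 ± 0.33) and mib1, whose product activates Delta ligands by ubiquitination (0.19 ± 0.23), had overlapping groups. The other pofut1 probe sets differed by -0.22 ± 0.29 and 0.55 ± 0.34, so the readings of pofut1 had no common direction. A dimmer mib1 probe set, at background in both genotypes, differed by -0.22 ± 0.22.

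Of 14 tested genes that are Hairy/Enhancer of split genes or Notch targets, 5 had higher and 9 lower fitted values (median -0.06). In limma 0 had an unadjusted p under 0.05. The list does not separate genes by their dependence on Notch. The neural repressor her9 was at 2249.0, 2882.6 and 2714.0 in siblings and 2052.7, 2011.4 and 2451.1 in mutants, lower at every number by -0.26 ± 0.15 (limma adjusted p = 0.942). The gene her2 was also lower at every number (-0.31 ± 0.27), though the ratio of mutant to sibling was 0.983 at replicate 1. The genes her6 (-0.23 ± 0.15), her15.2 (-0.35 ± 0.21) and hey1 (0.27 ± 0.22) went both ways. Single arrays moved these values, to -0.12 for her2 without wild-type replicate 3, -0.12 for her6 without wild-type replicate 2, -0.12 for her15.2 without mutant replicate 2 and 0.13 for hey1 without wild-type replicate 2. The her15 genes are near-identical copies, so that value cannot be assigned to 1 of them.

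**Figure D3:**
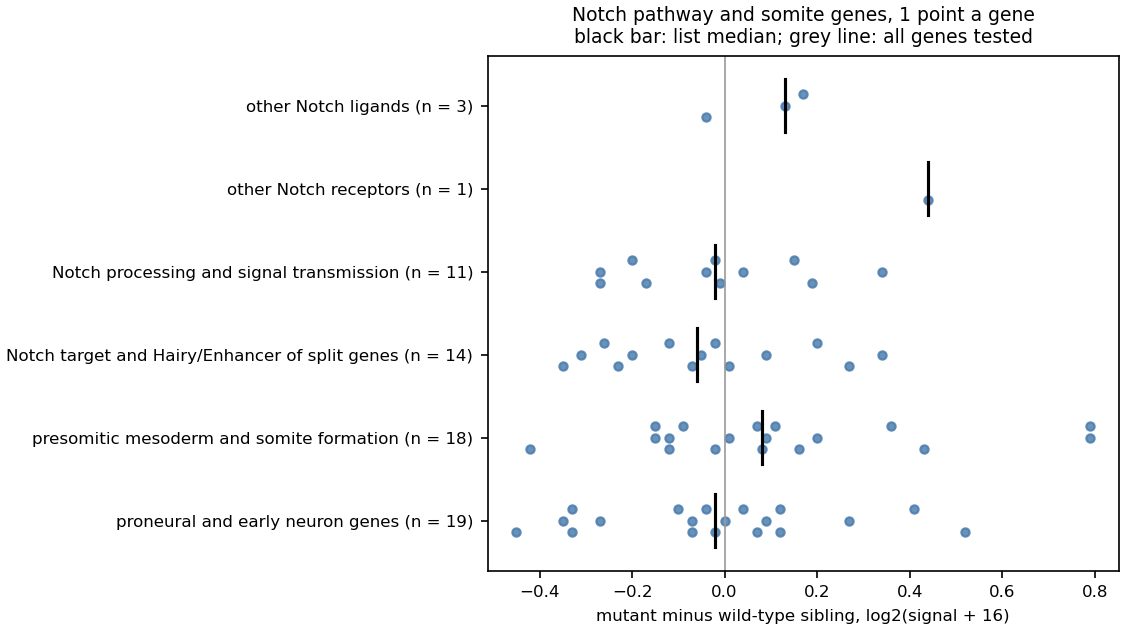
Mutant minus wild-type sibling difference, on log2(signal + 16), of each tested gene of 6 lists, with the list median as a black bar and the median of all 7356 genes tested as a grey line. The medians of the 4 larger lists lie between -0.06 and 0.08, and foxc1a and tbx16 lie farthest to the right, both at 0.79.

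Of 18 tested genes of the presomitic mesoderm and somite formation, 11 had higher and 7 lower fitted values, with a median of 0.08 and 1 gene with an unadjusted p under 0.05. That gene was foxc1a, a forkhead factor needed for somite formation, at 265.6, 243.8 and 150.3 in siblings and 493.4, 529.1 and 210.1 in mutants (0.79 ± 0.34, limma adjusted p = 0.942). With single arrays left out its difference ran from 0.56 to 1.2. The unadjusted limma p of foxc1a was above 0.05 without wild-type replicate 2 (0.0657) or 3 (0.164), or mutant replicate 1 (0.148) or 2 (0.148). The tail bud T-box gene tbx16 differed by 0.79 ± 0.50 on its brighter probe set, where sibling replicate 2 alone was low at 58.4, and by 0.11 on the other. The T-box gene tbxta (0.43 ± 0.29) and the Eph receptor gene epha4a of the somite boundary (0.16 ± 0.16) also had overlapping groups. Leaving out mutant replicate 2 brought tbxta to 0.13, leaving out mutant replicate 3 brought it to 0.74, and epha4a was at 0.064 once mutant replicate 1 was dropped. Leaving out wild-type replicate 2 gave 0.11 for tbx16. The somite T-box gene tbx6, which acts upstream of mespba, differed by 0.08.

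Of 19 tested proneural and early neuron genes, 9 had higher and 10 lower fitted values (median -0.02), and 1 had an unadjusted p under 0.05. This was ascl1a, a proneural factor, at 636.8, 711.1 and 670.8 in siblings and 571.9, 487.0 and 544.5 in mutants. Its groups did not overlap and it was lower at every number, by -0.33 ± 0.14 (limma adjusted p = 0.942). The zinc finger gene myt1a was higher without overlap (0.41 ± 0.20), and ascl1b (-0.35 ± 0.20), tlx3b (-0.33 ± 0.24) and olig2 (0.52 ± 0.39) had overlapping groups. With 1 array left out, ascl1b was -0.15 (mutant replicate 2), tlx3b -0.16 (mutant replicate 1), olig2 0.14 (wild-type replicate 3) and myt1a 0.25 (wild-type replicate 3). Of all 7356 genes tested, 219 had an unadjusted p under 0.05 and 500 had groups that did not overlap.

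Patterns over the 6 arrays were compared by the root mean square difference of log2(signal + 16) after each gene was centred on its own mean. Genes with only a clone or locus name (LOC, zgc:, si:, wu: or im:) were left out of the ranking but not of the medians. Such genes may therefore lie nearer than those listed. Closest to dlc, on its first probe set, were ipcef1 (0.34), ppp6r2a (0.341), cyp2aa3 (0.36) and the nuclear import receptor gene tnpo2a (0.398), against a median of 0.766 over all genes tested. Closest to dla were fars2 (0.046), the trunk Hox gene hoxb6a (0.059), nudcd1 (0.067) and the growth factor gene fgf3 (0.068), against a median of 0.288. A gene with the same value on all arrays would lie 0.742 from dlc and 0.205 from dla. That the nearest genes lie under the median follows from how they were picked. With 1 probe set per gene compared, no member was among the 4 ranked genes nearest to either. All 6 arrays were at or below the Tag controls for fgf3, and 5 of 6 for ppp6r2a, whose mutant replicate 1 was above them at 116.1.

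**Figure D4:**
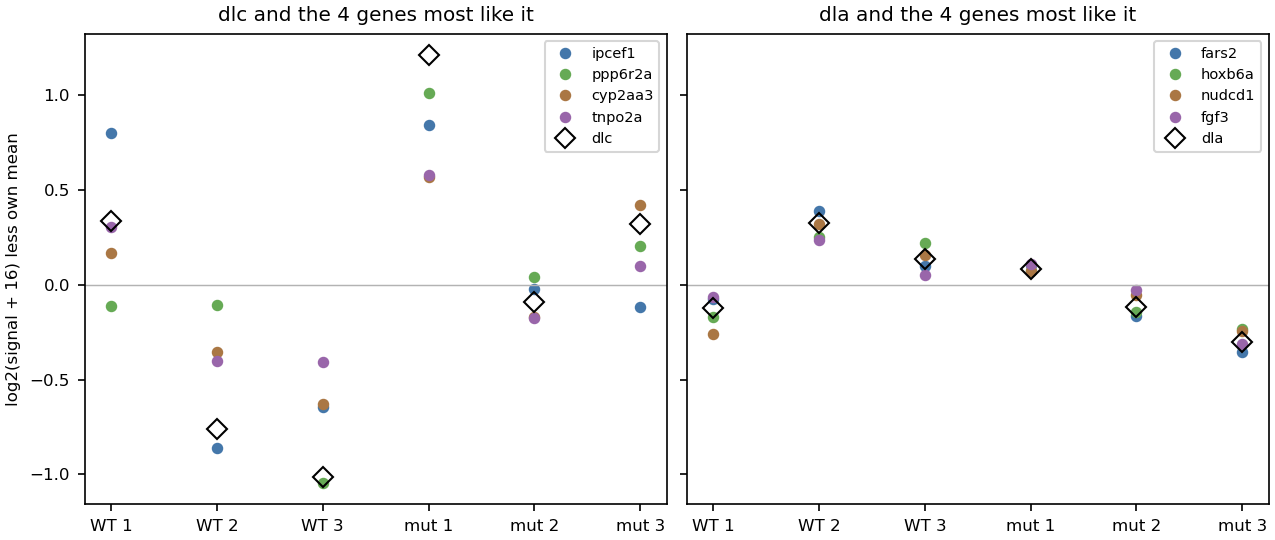
Centred log2(signal + 16) on the 6 arrays (WT, wild-type sibling; mut, mutant; replicates 1 to 3) of dlc and dla as open diamonds and of 4 genes like each as coloured points. The 4 genes were picked as the nearest, with clone and locus names left out, at 0.046 to 0.068 from dla and 0.34 to 0.398 from dlc.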

How the data were processed

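The deposited values are linear hybridisation intensities made by the authors with MAS5, the Affymetrix signal algorithm, per the submitters' processing notes. The sources used here give neither its version nor detection calls. Each array has a common trimmed mean, and no further scaling was applied. The number of arrays limits the precision. Nothing in the labels says what a replicate is beyond its number.

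After 115 control probe sets and the lowest 25% by mean log2 value were left out, 11626 probe sets were tested on log2(signal + 16) by limma version 3.58.1 under R version 4.3.3 (empirical Bayes with intensity trend, two-sided, Benjamini-Hochberg adjustment, threshold 0.05). The fit was tested on simulated data. Symbols came from the platform annotation, updated by gene identifier to RefSeq (10711 of 10795 probe sets with 1 symbol). In lists, the probe set of highest mean over all 6 arrays stood for a gene. A genotype is at background for a probe set where all 3 arrays lie at or below the brightest of 17 Tag controls.

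Same-numbered arrays deviated together from their genotype means (correlations 0.193, 0.119 and 0.482), so arrays of a number were treated as pairs in the blocked fit. Only for 4 of the 6 arrays did the most similar array of the other genotype have the same number. The pairing rests on the data, not the labels. The named genes are the members, hand2, up to 5 genes of smallest p per pathway list and tissue markers. To these were added the 4 genes of most similar pattern to dlc and dla, with clone and locus names left out. A few more of the lists (tbx6, notch1b) were named after their values were seen. Members and lists were chosen with earlier results of these data known. Alternatives covered the block, offset, normalization, filter and single arrays. Sequences are not used here.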

Additional observations from a re-analysis of the deposited data

How the results depend on the processing

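Under 13 alternatives, 138 of 151 member results kept their direction and their side of the adjusted threshold, 13 in 4 probe sets changed sign, and 0 passed (smallest limma adjusted p 0.404). Keeping a side says little, since no member had a limma adjusted p under 0.942 in the main fit, and sizes could change where direction did not. The replicate number as a block raised the probe sets with an unadjusted p under 0.05 from 352 to 862 and the members from 1 to 3, and changed no adjusted call. The number of all probe sets was 533 with no intensity filter and 210 with the lowest 50% left out. That stricter filter also removed hand2, and 0 of the probe sets it kept passed after adjustment. With single arrays left out the number with an unadjusted p under 0.05 ran from 154 to 1274. Those passing after adjustment ran from 0 to 20 (20 without mutant replicate 3), and members with an unadjusted p under 0.05 from 0 to 2. Signs turned for dld after quantile normalization (0.0046), for the dimmer notch1a probe set after quantile normalization (-0.045) and under a common median (-0.064), and for notch3 under a common median (-0.027). With single arrays left out the log2 differences ran from -0.18 to 0.14 for the dimmer dlb probe set, -0.10 to 0.033 for dld, -0.15 to 0.21 for the dimmer notch1a probe set, -0.07 to 0.14 for notch3, -0.047 to 0.54 for adam17a, -0.023 to 0.35 for mib1 and -0.094 to 0.021 for jag2b. For the first dlc probe set they ran from 0.59 to 1.37. The clock and neural contrast, not computed with the block or another filter, was 0.20 to 0.43 with single arrays left out and 0.25 to 0.31 under the offsets and normalizations, and 0.13 and 0.47 under 2 choices of genes and probe sets made after seeing the data. The cause of these changes was not tested. Signal over background limits her1, her7, mespba, mespaa, myod1 and the dimmer notch1a probe set. Of the 6 member probe sets with 1 direction at every number, all but the second dlc probe set kept it under the common median and after quantile normalization, and all 6 did with offsets of 1 and 64.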
